A study of Mus musculus with 3 samples.

Results

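Rc3h1, Rc3h2, Zc3h12a, Zfp36, Zfp36l1 and Zfp36l2 encode RNA-binding proteins that shorten the life of immune mRNAs. They were taken by name, after gene identifiers were matched to GENCODE symbols, and make up 6 of the 22457 genes counted. Polyadenylated RNA of mouse regulatory T cells was sequenced to give these counts. These cells are the CD4 lineage that restrains other T cells and depends on the transcription factor Foxp3. All 3 libraries are numbered technical replicates, 1 to 3, of a single biological replicate. The labels describe primary cells of adult mice aged 4 months that trace to haematopoietic cells of the bone marrow, with the sex not collected. They name no genotype, strain or treatment, and neither a sort nor a pooling of animals is given in the sources used here. With 1 group there is no comparison of conditions, and every p-value below measures the spread between these libraries, not between animals.

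The libraries held 3206781, 3228215 and 2872350 counts. All 11 regulatory T cell identity genes, a list that includes Foxp3, Il2ra and Ctla4, reached a CPM of 1 in every library. CPM is a gene's counts scaled to a total of 1000000. Of all genes with a coding length, 49.5% reached a CPM of 1 in every library. The CPM of the 11 identity genes summed to 4974, 4854 and 4860 in libraries 1, 2 and 3. Of the 11, 3 passed the chi-square test of library differences used below (27.3%), against 27.6% of all genes tested. Cd4 fell (618, 533 and 501 CPM), as did Nrp1 (878, 854 and 751), and Il2ra was highest in library 3 (380, 343 and 436). Markers of other cell types were also present and differed between libraries. The B cell markers summed to 1250, 1316 and 1516 CPM, monocyte and dendritic cell markers to 666, 759 and 985, and CD8 and NK cell markers to 195, 256 and 303. Ighm made up most of the B cell sum (966, 955 and 1033 CPM). By the same test 7 of 9 B cell markers tested passed (77.8%), all highest in library 3. Cd22 (53.6, 51.1 and 51.9) and Blk (6.86, 9.29 and 5.92) did not pass. Nkg7 (99.5, 124 and 124) and Gzmb (32.1, 57.0 and 81.5) made up most of the CD8 and NK cell sum. There 4 of 6 passed (66.7%), all highest in library 3, and Cd8b1 (23.4, 28.8 and 27.9) and Prf1 did not. Most of the monocyte and dendritic cell sum came from Cd74 (434, 474 and 537 CPM), H2-Aa (97.6, 134 and 209) and H2-Ab1 (92.0, 124 and 181). Among the rest of that list that reached 1 CPM in every library, Csf1r, Cd68 and Itgam were lowest in library 2. Lyz2 rose from library 1 to library 3. Erythroid markers summed to 22.8, 283 and 214 CPM and neutrophil markers to 1.87, 81.8 and 12.5, and S100a8, S100a9, Hbb-bs, Hbb-bt and Hba-a1 were at 0 in library 1. Whether cells of these types were present, and what part they play in the counts of the 6 genes, was not tested.

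The 6 proteins act after transcription. Zfp36 (tristetraprolin) and its relatives Zfp36l1 and Zfp36l2 hold AU-rich elements of 3′ untranslated regions with paired CCCH zinc fingers and bring in the CCR4-NOT deadenylase, which removes the poly(A) tail. The Roquin proteins, encoded by Rc3h1 and Rc3h2, recognise stem-loops through their ROQ domain and also recruit CCR4-NOT, while Regnase, encoded by Zc3h12a, is an endonuclease that cuts stem-loop mRNAs. In T cells these proteins hold down costimulatory receptors and cytokines such as Icos, Tnfrsf4 and Tnf. The protease Malt1 cleaves Roquin and Regnase after antigen receptor stimulation.

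The zinc finger is the part that all 6 proteins share, so its coding sequence is shown for each, 5′ to 3′ on the coding strand (GENCODE M21, GRCm38). Capitals mark the codons of the cysteines and histidine that hold the zinc. The stretches of the Zfp36 family hold both fingers and lie at chr7:28378044-28378232 (Zfp36), chr12:80110075-80110263 (Zfp36l1) and chr17:84186554-84186742 (Zfp36l2), all on the minus strand.
Zfp36: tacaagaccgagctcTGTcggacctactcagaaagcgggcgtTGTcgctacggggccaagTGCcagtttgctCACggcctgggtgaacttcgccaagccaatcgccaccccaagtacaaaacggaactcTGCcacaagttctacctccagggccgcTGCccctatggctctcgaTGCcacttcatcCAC
Zfp36l1: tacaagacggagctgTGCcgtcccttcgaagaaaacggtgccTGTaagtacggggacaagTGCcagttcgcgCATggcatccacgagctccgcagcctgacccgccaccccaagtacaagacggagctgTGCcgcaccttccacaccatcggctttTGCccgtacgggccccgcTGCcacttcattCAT
Zfp36l2: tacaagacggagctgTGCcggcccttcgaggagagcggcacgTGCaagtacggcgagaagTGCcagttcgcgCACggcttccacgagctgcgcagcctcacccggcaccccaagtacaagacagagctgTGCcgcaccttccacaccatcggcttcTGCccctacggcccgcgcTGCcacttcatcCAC
Each finger of the 3 Zfp36 genes spaces its ligands by 8, 5 and 3 residues, with 18 residues between the fingers. Zfp36l1 and Zfp36l2 were the closest pair, with 88.4% of bases and 93.7% of encoded residues the same. Zfp36 shared 69.8% of residues with Zfp36l1 and 71.4% with Zfp36l2.

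The Roquin and Regnase genes encode 1 such finger. It lies at chr1:160950255-160950314 on the plus strand in Rc3h1, at chr2:37398264-37398323 on the minus strand in Rc3h2, and at chr4:125120104-125120335 on the minus strand in Zc3h12a, where an intron interrupts it.
Rc3h1: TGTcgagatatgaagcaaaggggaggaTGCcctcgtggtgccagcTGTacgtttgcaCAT
Rc3h2: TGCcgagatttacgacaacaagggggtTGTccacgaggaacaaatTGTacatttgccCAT
Zc3h12a: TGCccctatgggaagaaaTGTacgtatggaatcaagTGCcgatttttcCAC
The Roquin fingers keep the spacing of 8, 5 and 3 residues and share 75.0% of residues. In Zc3h12a the first spacing is 5 residues.

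Levels are given as CPM per kilobase of coding sequence, so that genes of different length can be set side by side. Zfp36 was the most abundant of the 6 genes and Zfp36l2 the least, and between them the order was Zfp36l1, Rc3h2, Rc3h1 and Zc3h12a. No library of one gene overlapped with a library of its neighbour in this order. Per kilobase of exon sequence the first, second and last places were the same, but the 3 between them turned round, with Zc3h12a at 5.39, Rc3h1 at 4.41 and Rc3h2 at 3.87. In bulk RNA, fewer expressing cells and less RNA per cell cannot be told apart.

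**Figure D1:**
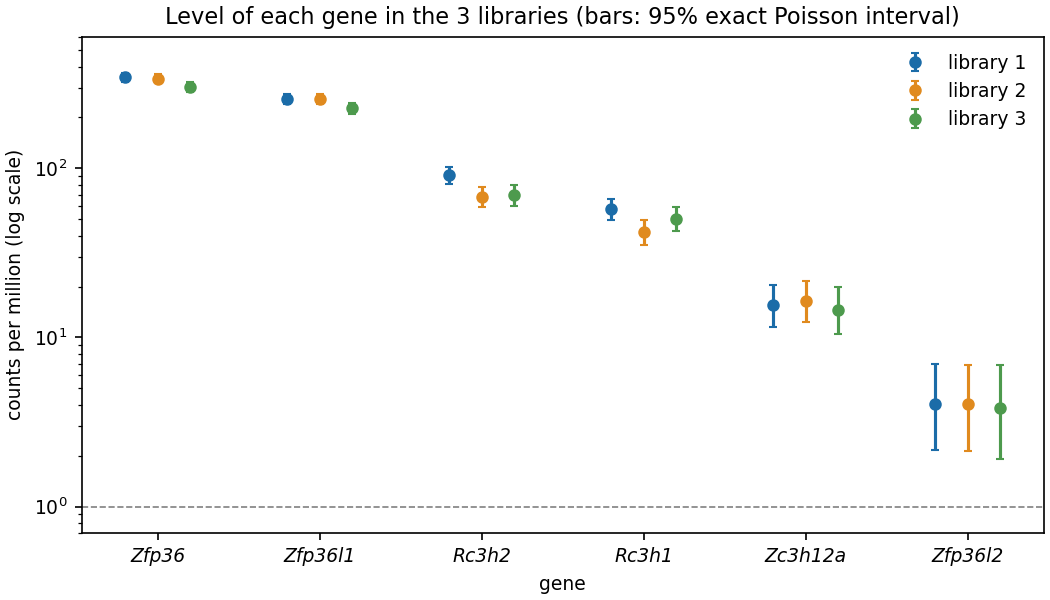
CPM of each of the 6 genes on a log axis, not corrected for length, 1 point per library with its 95% exact Poisson interval and a dashed line at 1 CPM. Zfp36 and Zfp36l1 lie between 227 and 345 CPM in every library, and Zfp36l2 between 3.83 and 4.05.

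Zfp36 (ENSMUSG00000044786.5, chr7:28376784-28380253, minus strand) had 1106, 1092 and 873 counts in libraries 1, 2 and 3, or 345, 338 and 304 CPM. Its mean level was 344 ± 23.0 CPM per coding kilobase (SD, n = 3), above 97.6% of the genes with a count. Zfp36 encodes tristetraprolin, the founding protein of the family, and is also an immediate early gene. Libraries 1 and 2 lay close together and library 3 was lowest. Library 1 exceeded library 3 by 1.14-fold after scaling, which did not pass the chi-square test over all genes (Benjamini-Hochberg adjusted p = 0.0554). It passed with plain totals as library sizes (0.0468), with a minimum mean count of 50 (0.0481) and without library 2 (0.0461).

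Zfp36l1 (ENSMUSG00000021127.6, chr12:80107754-80113013, minus strand) had 825, 835 and 652 counts, or 257, 259 and 227 CPM. The mean level was 244 ± 17.6 CPM per coding kilobase (SD, n = 3). Zfp36l1 encodes an AU-rich element binder that is known to limit cell cycle entry in developing lymphocytes. As for Zfp36, libraries 1 and 2 were nearly equal and library 3 was lower, and the chi-square test was not passed (adjusted p = 0.101). The lincRNA gene Gm26669 lies on the opposite strand over 1672 of the 2990 exon bases of Zfp36l1. Gm26669 is not among the counted genes, so it has no count to set beside that of Zfp36l1. Since the strand setting is not given in the sources used here, reads of the pair cannot be told apart.

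Zfp36l2 (ENSMUSG00000045817.8, chr17:84183931-84187947, minus strand) had 13, 13 and 11 counts, or 4.05, 4.03 and 3.83 CPM. The 95% Poisson intervals were 2.16 to 6.93, 2.14 to 6.89 and 1.91 to 6.85 CPM, and all intervals in this text cover counting error only. Zfp36l2 encodes the paralogue whose fingers are nearest to those of Zfp36l1. All 3 libraries overlapped within these intervals. The floor of 3 counts corresponds to 0.936, 0.929 and 1.04 CPM, so the gene was detected in each library. Zfp36l2 is known to be expressed in T cells, and whether these few counts reflect the level of its transcript was not tested.

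Per coding base, the pooled counts of Zfp36 were 126-fold those of Zfp36l2 (95% exact binomial interval 91.2 to 179), and those of Zfp36l1 were 89.5-fold (64.7 to 127). Zfp36 exceeded Zfp36l1 by 1.41-fold (1.33 to 1.49). The log2 ratio of Zfp36l1 to Zfp36 was −0.51, −0.47 and −0.50 in libraries 1, 2 and 3, so the pair kept its proportion. Zfp36 made up 58.2% ± 0.333, Zfp36l1 41.3% ± 0.341 and Zfp36l2 0.464% ± 0.0183 of the level summed over the 3 genes (SD, n = 3). Per kilobase of exon sequence Zfp36 exceeded Zfp36l1 by 1.15-fold and Zfp36l2 by 84.2-fold.

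Zfp36l2 also differs from the other 5 genes in the base composition of its coding sequence. Its coding GC content was 71.1%, against 44.8% for Rc3h2, 49.1% for Rc3h1, 58.9% for Zc3h12a, 62.0% for Zfp36 and 62.8% for Zfp36l1. Only 0.276% of the genes with a count had a higher value. Across the genes with a count the median level was low at both ends of coding GC, with 4.17 CPM per kilobase under 40%, 21.9 at 40 to 45%, 13.1 at 55 to 60%, 5.59 at 60 to 65% and 0.732 at 70% or more, and 16 of all 150 genes in the last class (10.7%) reached 1 CPM in every library. Of the 60 genes with a count at 70% or more, 15 lay above Zfp36l2. The part of base composition in the low count of Zfp36l2 was not tested.

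**Figure D2:**
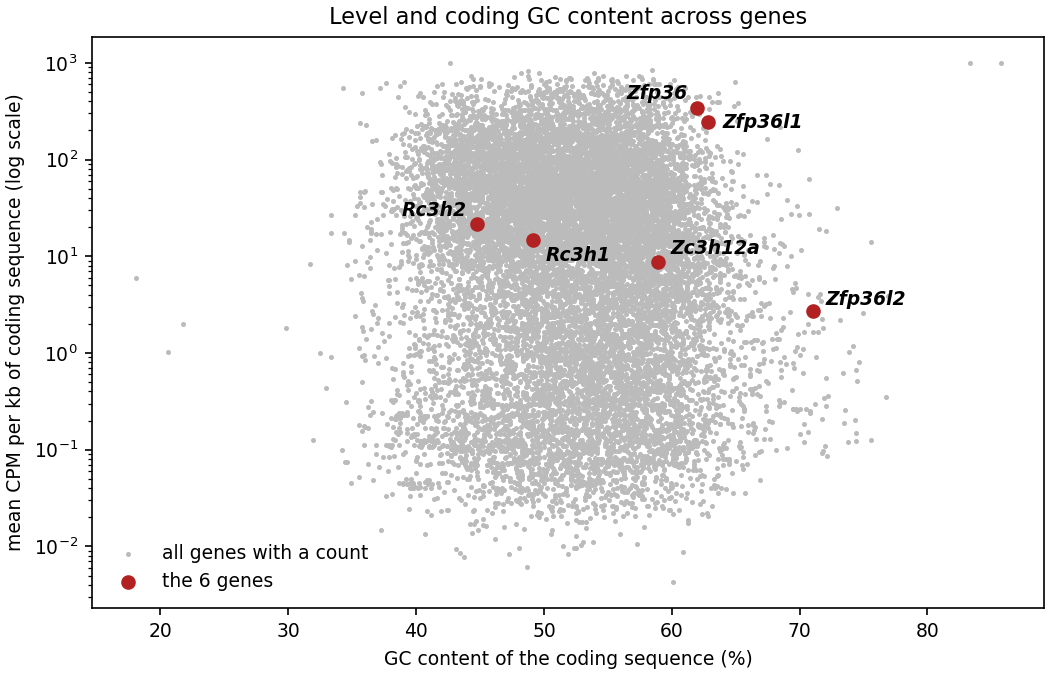
Mean level in CPM per coding kilobase, on a log axis, against the GC content of the coding sequence in percent, for all genes with a count and with the 6 genes marked. Zfp36 and Zfp36l1, at 62.0 and 62.8% GC, lie far above the median of 5.59 of their class, and Zfp36l2 lies at 71.1% with a level of 2.73.

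Zfp36 and Zfp36l1 are also the members with the most counts per coding base, 1.07 and 0.760 on average, against 0.00849 to 0.0664 in the other 4. From library 1 to library 3 the totals changed by −0.16 on the log2 scale. Genes with under 0.1 counts per coding base changed by a median of −0.22, those with 0.5 to 1 by −0.11 and those with 1 to 1.6 by −0.06. The median change was thus smaller in denser genes, and its cause was not tested. All 6 members changed further than the totals and than the median of their own density class. The share of all genes that did so was not computed. Zfp36, Zfp36l1 and Rc3h1 changed by −0.34 each, Rc3h2 by −0.54, Zc3h12a by −0.25 and Zfp36l2 by −0.24. Whether dense counting lowered the level of these genes in all 3 libraries was not tested.

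Rc3h2 (ENSMUSG00000075376.6, chr2:37370069-37422903, minus strand) had 291, 218 and 200 counts, or 90.7, 67.5 and 69.6 CPM. Its mean level was 21.3 ± 3.61 CPM per coding kilobase (SD, n = 3). Rc3h2 encodes the second Roquin protein, which overlaps in function with the first. Library 1 stood above the other pair. The 3 counts differed by more than Poisson error in the chi-square test over all genes (Benjamini-Hochberg adjusted p = 0.00351), and library 1 exceeded library 2 by 1.38-fold (95% exact interval 1.15 to 1.65, adjusted p = 0.00434) and library 3 by 1.31-fold (1.09 to 1.57, adjusted p = 0.0466). Without library 1 the ratio was 1.05 and the call was lost (adjusted p = 0.774).

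Rc3h1 (ENSMUSG00000040423.6, chr1:160906418-160974978, plus strand) had 184, 135 and 145 counts, or 57.4, 41.8 and 50.5 CPM. The mean level was 14.7 ± 2.30 CPM per coding kilobase (SD, n = 3). Rc3h1 encodes the Roquin protein altered in the autoimmune sanroque mouse. As in Rc3h2, library 1 was highest and library 2 lowest. The chi-square test called the difference (adjusted p = 0.0391), and library 1 exceeded library 2 by 1.41-fold (95% exact interval 1.12 to 1.77, adjusted p = 0.0205). The call was lost at a similar highest-to-lowest ratio with plain totals (1.37-fold, adjusted p = 0.0647), with library sizes from genes of low count density (1.35-fold, 0.0846) and with every counted gene in the adjustment (1.41-fold, 0.0549). It was lost with a smaller ratio without library 1 (1.23-fold, 0.230) or library 2 (1.14-fold, 0.519).

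Differences of this kind were common, which sets the scale for both Roquin calls. The chi-square test called 27.6% of the 10282 genes tested, and 2 of the 6 members. Between pairs of libraries, 18.6% of genes were called for libraries 1 and 2, 8.66% for libraries 1 and 3 and 15.4% for libraries 2 and 3. A negative binomial form of the test, with the spread common to all genes (a coefficient of variation of 12.5%), called 0.914% of genes and 0 of the 6 members. None of the 6 had an unadjusted p under 0.05 there, and the lowest was 0.199. The common spread was estimated from the same 3 libraries, so it already holds the differences between them and leaves few genes to be called.

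**Figure D3:**
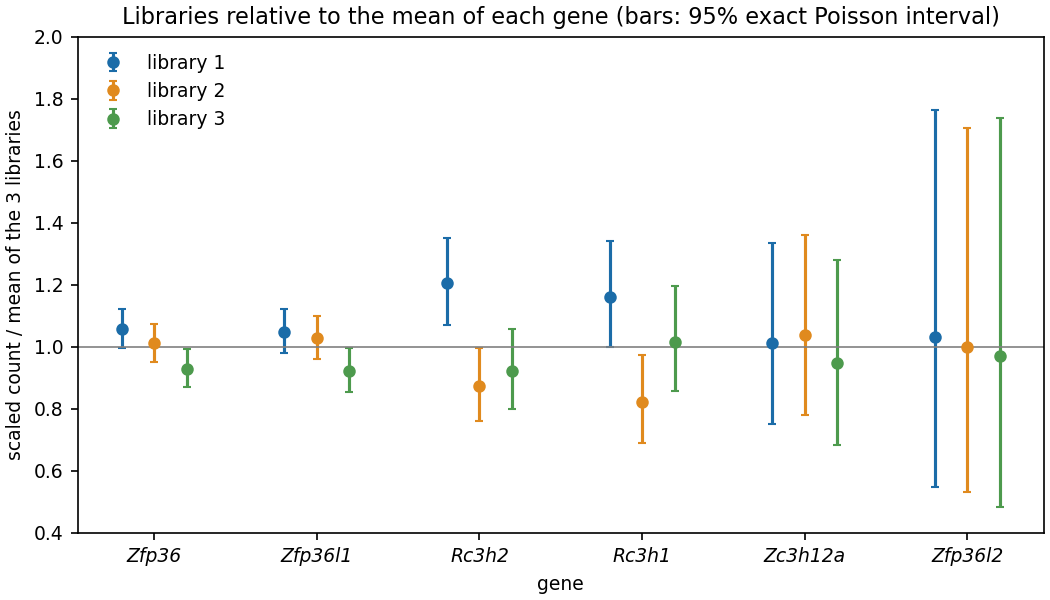
Counts of the 6 genes in each library relative to their mean, after scaling for library size, with 95% exact Poisson intervals as bars and a line at 1. Rc3h1 and Rc3h2 are highest in library 1, 1.41-fold and 1.38-fold above library 2, and the other 4 genes span 1.06 to 1.14.

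Per coding base the pooled counts of Rc3h2 exceeded those of Rc3h1 by 1.45-fold (95% exact binomial interval 1.29 to 1.64), and Rc3h2 was higher in every library. This order rests on the length used. Per kilobase of exon sequence, which counts 19624 bases for Rc3h2 and 11308 for Rc3h1, Rc3h1 was 1.14-fold higher. The summed level of the Zfp36 genes was 16.5-fold that of the Roquin genes per coding kilobase and 21.7-fold per exon kilobase.

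Zc3h12a (ENSMUSG00000042677.7, chr4:125118423-125127840, minus strand) had 50, 53 and 42 counts, or 15.6, 16.4 and 14.6 CPM. The mean level was 8.69 ± 0.503 CPM per coding kilobase (SD, n = 3), above 43.1% of the genes with a count. Zc3h12a encodes the nuclease Regnase, which degrades mRNAs of inflammation and of T cell activation. The libraries differed by less than counting error (adjusted p = 0.934 by the chi-square test). Rc3h1 exceeded it by 1.69-fold per coding base (95% exact binomial interval 1.40 to 2.05), whereas per exon kilobase Zc3h12a was 1.23-fold higher than Rc3h1.

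The overlap of transcripts limits some of these counts. Gm44710 lies antisense to 125 exon bases of Zfp36 and AC132455.1 to 105 of Zfp36l2, and neither is among the counted genes. Of all 36-base stretches of a transcript, those also found in the transcript of a gene elsewhere made up 5.41% in Zfp36l1, 3.92% in Zfp36, 1.76% in Zc3h12a, 0.628% in Rc3h2 and 0% in Rc3h1 and Zfp36l2. How the counting treated such stretches is not given in the sources used here.

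Because the Zfp36 proteins bind AU-rich motifs, the 3′ untranslated regions of the 6 genes were searched for such motifs on the transcript strand. The motifs were TATTTAT, the longer TTATTTATT that contains it, and TTCNNNGAA, a core that Roquin stem-loops can hold. Of the 6 genes, 5 had a single TTATTTATT, and the windows around it are shown with the motif in capitals. They lie at chr7:28376951-28376979 (Zfp36, minus), chr12:80108167-80108195 (Zfp36l1, minus), chr17:84184914-84184942 (Zfp36l2, minus), chr1:160970043-160970071 (Rc3h1, plus) and chr2:37373287-37373315 (Rc3h2, minus).
Zfp36: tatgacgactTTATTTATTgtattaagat
Zfp36l1: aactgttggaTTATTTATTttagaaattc
Zfp36l2: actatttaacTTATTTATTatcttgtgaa
Rc3h1: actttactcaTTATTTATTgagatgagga
Rc3h2: caaagacattTTATTTATTttactctgta
Zfp36, Zfp36l1, Zfp36l2 and Rc3h2 each had 3 copies of TATTTAT, Rc3h1 had 2 and Zc3h12a had 0. A match describes letters and not a bound site.

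These motifs are more often found by length alone in the long Roquin regions than in the short Zfp36 region. Among counted genes with a 3′ untranslated region within 20% of the same length, TTATTTATT was present in 4.40% for the 774 bases of Zfp36, in 9.46% for both Zfp36l1 and Zfp36l2, and in 22.1% and 25.5% for Rc3h2 and Rc3h1. At least 3 copies of TATTTAT were present in 1.20% of regions of the length of Zfp36, and in 3.91% for Zfp36l1 and Zfp36l2, against 17.6% for Rc3h2. The core TTCNNNGAA occurred 7 times in Rc3h1, 3 times in Rc3h2, once in Zfp36l1 and Zfp36l2, and not in Zfp36 or Zc3h12a. It was present at least once in 90.5% of regions of the length of Rc3h1 and in 24.8% of those of Zfp36. As many copies as in Rc3h1 were found in 3.06% of regions of its length, and as many as in Rc3h2 in 27.5%. Over all 20263 counted genes with such a region, 6.90% held TTATTTATT and 30.9% held the core.

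**Figure D4:**
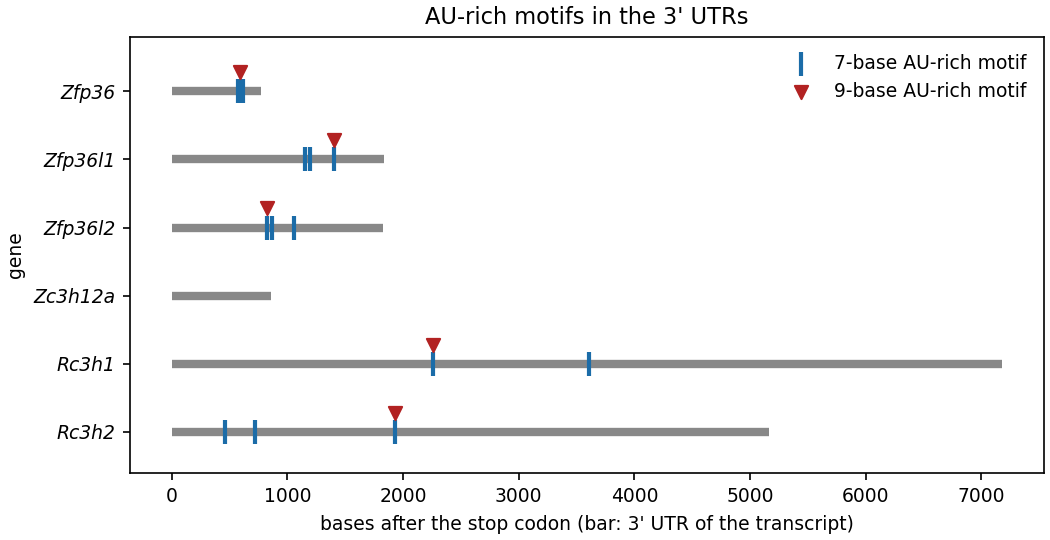
Position of the TATTTAT (bars) and TTATTTATT (triangles) motifs along the 3′ untranslated region of each of the 6 genes, in bases after the stop codon. Zfp36, Zfp36l1, Zfp36l2 and Rc3h2 carry 3 copies of TATTTAT, and Zc3h12a has none in its 856 bases.

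Near relatives of the 6 genes were lower than the Zfp36 pair. Zc3h12d and Khnyn, which carry a nuclease domain like that of Regnase, had 33.4 ± 5.79 and 17.7 ± 5.38 CPM per coding kilobase (SD, n = 3). N4bp1, another protein with this domain, had 16.5 ± 1.05 and Zc3h12c 2.98 ± 0.694. The Zc3h12d level lay above that of Zc3h12a in every library. Zfp36l3, a family member known from the placenta, had 0 counts in all 3 libraries. Khnyn had 128, 141 and 67 counts and Zc3h12d 203, 145 and 150, and both passed the chi-square test, as did 27.6% of all genes tested.

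The enzymes these proteins recruit were present throughout. All 18 genes of the CCR4-NOT and PAN deadenylases reached 1 CPM in every library, against 49.5% of all genes with a coding length. Their median level was 72.1 CPM per coding kilobase, against 35.2 over all genes tested and 18.0 over the 6 members. Btg2, an adaptor of the deadenylase, had the highest level at 413 ± 14.0, followed by Cnot2, a core subunit, at 144 ± 17.6 (SD, n = 3). The list had 8 of 18 genes past the chi-square test, against 27.6% of all genes tested. Of the 8, 3 were highest in library 1 and 5 in library 3, against 40.3% and 28.1% of all genes called. The negative binomial test called 0 of the 18, against 0.914% of all genes tested, so few calls could arise in a list of this size. The median CPM of the list was 107, against 48.4 over all genes tested, and the chi-square test picks up smaller differences at higher counts. Whether more genes were called than among genes of similar count was not tested. Btg1, which is related to Btg2, had 155, 237 and 226 counts and was lowest in library 1.

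Decapping factors followed a similar pattern of presence, with 11 of 12 genes at 1 CPM and a median level of 56.8 CPM per coding kilobase. Of all genes with a coding length, 49.5% were at 1 CPM. Ddx6, the helicase that links deadenylation to decapping, stood at 92.3 ± 6.83 (SD, n = 3). The decapping enzyme Dcp2 had 75, 127 and 112 counts and its activator Dcp1b 278, 242 and 165. Of 11 genes tested, 7 passed, against 27.6% of all genes, and 5 of the 7 were highest in library 1, as were 40.3% of all genes called. The negative binomial test called 0 of the 11, against 0.914% of all genes tested. The median CPM of this list was 86.1, against 48.4 over all genes tested, so the same limit of the chi-square test applies. All 20 genes of the exosome and nonsense-mediated decay reached 1 CPM, with a median level of 51.8. Of the 20, 6 passed (30.0%), against 27.6% of all genes tested. Upf1, the helicase that acts with Regnase, had 50, 38 and 35 counts, a level of 3.91 ± 0.622 per coding kilobase.

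Other proteins that bind AU-rich or stem-loop sequences were well represented, with 11 of 11 at 1 CPM and a median level of 80.9 CPM per coding kilobase. Of all genes with a coding length, 49.5% were at 1 CPM. Arid5a, which is known to protect stem-loop mRNAs from Regnase, had 739, 696 and 540 counts and a level of 103 ± 10.5 (SD, n = 3). Elavl1, the stabilising protein HuR, had 91, 130 and 106 counts. Of these 11 genes, 4 passed the chi-square test (36.4%), against 27.6% of all genes tested. Their median CPM was 124, against 48.4 over all genes tested. The negative binomial test called 0 of these 11, against 0.914% of all genes tested. All 10 genes of the MALT1 complex and of the p38 and MK2 pathway, which act on the members' proteins, reached 1 CPM. Malt1 had 278, 243 and 221 counts. Mapkapk2, the kinase MK2 that phosphorylates Zfp36, had 26, 51 and 36 counts, and Mapkapk3 had 267, 272 and 232. Ppp2ca, the phosphatase that reverses this mark, had 75, 163 and 86 counts. Of the 10 genes, 3 passed (30.0%), against 27.6% of all genes tested.

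**Figure D5:**
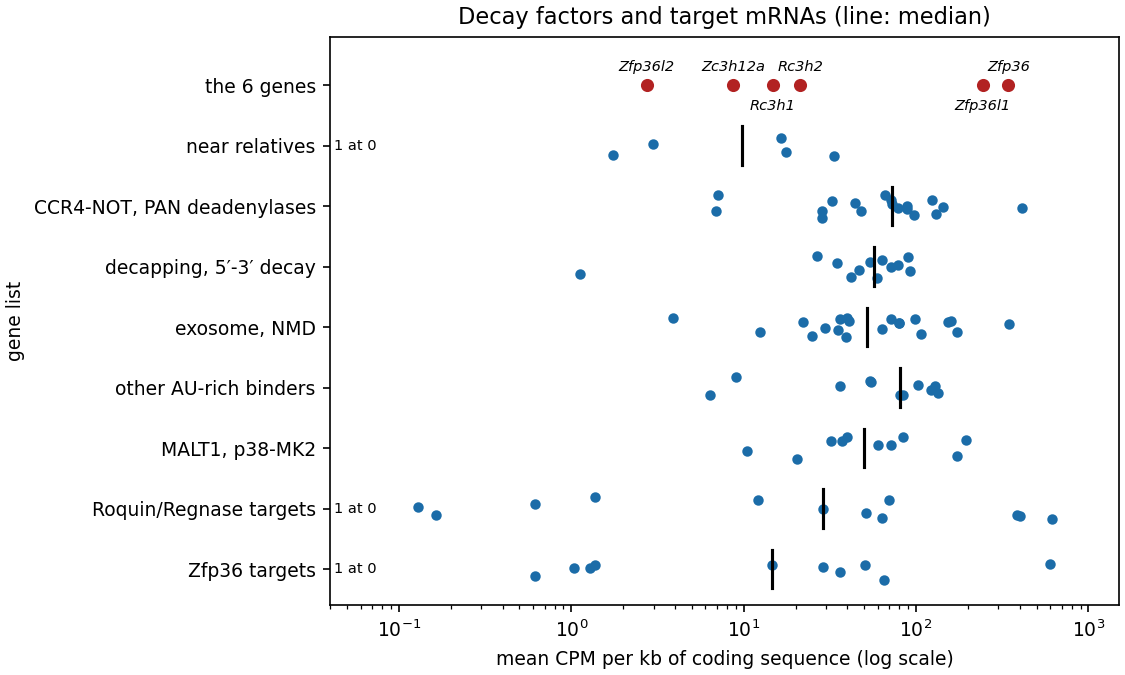
Mean level in CPM per coding kilobase, on a log axis, of each gene in the lists of decay factors, upstream enzymes and target mRNAs, with the median of each list as a line and genes at 0 given as a number at the left. The deadenylase median is 72.1 and that of the Zfp36 targets 14.7.

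Published targets of Roquin and Regnase spanned a wide range of levels, from abundant receptors to genes with at most 3 counts in a library. Tnfrsf4, the costimulatory receptor OX40, had 1552, 1600 and 1506 counts and a level of 614 ± 25.4 CPM per coding kilobase (SD, n = 3). Icos had 861, 826 and 791 counts, and the inhibitory receptor Ctla4 839, 865 and 712. These 3 genes did not pass the chi-square test. Nfkbiz, a nuclear cofactor of NF-kB, had 538, 424 and 454 counts and passed (adjusted p = 0.00101). Nfat5, a transcription factor, had 180, 151 and 193 counts and also passed (adjusted p = 0.0105). The cytokine Tnf had 67, 72 and 51 counts, whereas Il2 had 1, 2 and 0, Il6 had 1, 0 and 0, and Cxcl1 had 0 in each library. In all, 8 of 13 targets (61.5%) reached 1 CPM, against 49.5% of all genes with a coding length. Of the 8 tested, 2 passed (25.0%), against 27.6% of all genes tested.

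Targets of the Zfp36 family also spanned a wide range. Nfkbia, the inhibitor of NF-kB, had 1773, 1841 and 1628 counts and a level of 598 ± 9.77 CPM per coding kilobase (SD, n = 3). Pim1, a survival kinase, stood at 64.9 ± 2.26, Notch1 at 50.2 ± 3.94 and Mcl1, an antiapoptotic protein, at 36.2 ± 3.93. Tnf, the classic target of tristetraprolin and a member of both lists, had a level of 28.8 ± 3.30 (SD, n = 3), and Ifng had 18, 31 and 15 counts. Csf2 had 2, 1 and 2 counts, and Il3 had 0. Of the 11 targets, 6 (54.5%) reached 1 CPM, against 49.5% of all genes with a coding length. Of the 6 tested, 1 passed (16.7%), against 27.6% of all genes tested. The motif TTATTTATT was present in 7 of the 11 and in 5 of the 13 targets of Roquin and Regnase. Over all counted genes with a 3′ untranslated region the share was 6.90%. Published targets may have been picked out by such motifs, so these counts only describe the lists. The transcripts used had short regions in Il3 (101 bases), Icos (106) and Tnfrsf4 (180), each with 0 copies.

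The genes whose level over the 3 libraries lay nearest to each member were found by the distance between log2 levels, among genes with a mean count of at least 100. Cyth4 (distance 0.0571), Ctsd and Gpsm3 were nearest to Zfp36, and Glipr2 (0.0463), Cxcr3 and Serp1 to Zfp36l1. Fndc3a (0.0544), Ddhd2 and Ppwd1 were nearest to Rc3h2, and Ptch1 (0.117), Adnp2 and Tep1 to Rc3h1. Tnks1bp1 (0.103), Ttc21b and Cep290 were nearest to Zc3h12a. Zc3h12a and Zfp36l2 are themselves below the minimum count, which at low levels keeps only long genes (3945 to 7437 coding bases in those named for Zc3h12a), and no neighbour is given for Zfp36l2. The likeness rests on 3 libraries of 1 sample and describes level only.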

How the data were processed

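PolyA plus RNA-seq of 1 group of regulatory T cells was analysed in 3 libraries, technical replicates per the labels. The deposited values are whole-number counts per gene, from mm10 alignments and GENCODE M4 gene models per the description files deposited with the libraries. No aligner, counter, strand setting or duplicate removal is given in the sources used here.

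Symbols, positions, lengths and transcript sequences came from GENCODE M21 (GRCm38). Of 22457 identifiers, 22195 matched, and the 262 others held 0.117% of counts. Levels are CPM by total count per kilobase of coding sequence. Library differences were tested by chi-square of the 3 counts with TMM sizes (factors 0.990, 1.02 and 0.993; edgeR 4.0.16, R 4.3.3) at a mean count of at least 10, and pairs by exact binomial tests, 2-sided, with Benjamini-Hochberg adjustment over all 10282 genes at 0.05. Statistics used scipy 1.17.1, and the tests were checked on simulated data. Alternatives were other library sizes (DESeq2 1.42.0, plain totals, genes of low density), filters, exon length, a negative binomial test and leaving out each library.

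Members and the 15 gene lists were chosen with earlier results of these data known. Named list genes were drawn from the 4 highest per list, those called with a ratio of at least 1.5, and others chosen for their known role after their values were seen.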

Additional observations from a re-analysis of the deposited data

How the results depend on the processing

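The number of genes differing between libraries, 2836, became 94 with a negative binomial test, and 960 to 2014 when 1 library was left out. With exon length in place of coding length, the log2 ratio of Rc3h1 to Rc3h2 turned from −0.53 to 0.19 and that of Zc3h12a to Rc3h1 from −0.75 to 0.30. The other log2 ratios became −0.20 (Zfp36l1 to Zfp36), −6.40 (Zfp36l2 to Zfp36), 6.20 (Zfp36l1 to Zfp36l2) and 4.44 (Zfp36 genes to Roquin genes), and the shares of Zfp36, Zfp36l1 and Zfp36l2 became 53.0%, 46.3% and 0.630%. These shifts follow from the lengths used. Levels of the 6 genes moved by less than 1 SD with TMM sizes. At 5 CPM in every library, 5 CD8 and NK cell markers were detected in place of 8, 10 immediate early genes in place of 13, 2 erythroid markers in place of 3, and 1 gene fewer in the B cell, monocyte and near-relative lists. Without 1 library, neutrophil markers detected ranged from 0 to 5 and erythroid markers from 3 to 9, the higher values being without library 1. The cause was not tested. Depth limits Zfp36l2 most: its 11 to 13 counts per library carry a Poisson coefficient of variation of 28.5%. No paired analysis was possible because the labels give 1 group.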

Other observations

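Zfp36 belongs to the immediate early genes, which are induced within minutes by receptor signals. Of that list, 13 of 14 genes reached 1 CPM in every library, against 49.5% of all genes with a coding length. Btg2 had 413 ± 14.0 CPM per coding kilobase, Nr4a1 130 ± 12.5, Dusp1 115 ± 17.9 and Ier2 97.0 ± 11.2 (SD, n = 3). Of 11 genes tested, 5 passed the chi-square test (45.5%), against 27.6% of all genes tested. The negative binomial test called 0 of them, against 0.914% of all genes tested. Fos had 151, 81 and 104 counts in libraries 1, 2 and 3, highest in library 1, while Junb had 193, 247 and 140 and Egr1 had 127, 198 and 142, both highest in library 2. Atf3 had 0, 1 and 0 counts.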
